A study of Mus musculus with 2 samples.

Results

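The enzymes that make and inactivate prostaglandins, together with the steroid-acting aldo-keto reductase gene Akr1c14, were followed in C2C12 myotubes, cells of a mouse myoblast line that fuse and differentiate in low-serum medium. The set is 9 listed genes of 19938 genes named on the array: Hpgd, Akr1c14, Ptgs1, Ptgs2, Ptges, Ptges2, Ptges3, Ptgis and Ptgr1. Hpgd and Akr1c14 entered the list because of their difference between the arrays, so their values below are a description. A gene was read only through probe sets assigned to 1 gene; 8 of the 9 had one, and Ptgs1 was not analysed here. The myotubes carried either Ad-caERα, an adenoviral vector for a constitutively active estrogen receptor α, or Ad-DsRed, the same kind of vector for the red fluorescent protein DsRed, which was the control. All cultures had spent 7 days in medium with 2% horse serum, and infection lasted 48 h at a multiplicity of infection of 30. Each group is 1 culture on 1 array, so no test between the groups was possible and the spread between cultures is unknown. The labels give neither the part nor the species of the receptor, and no uninfected culture was analysed here.

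Prostaglandins are lipid mediators made from arachidonic acid that phospholipases free from membranes. Cyclooxygenases turn it into prostaglandin H2, from which terminal synthases make prostaglandin E2, prostacyclin and others. Hpgd oxidizes prostaglandins and ends their action at receptors, and reductases such as Ptgr1 work on the product. In skeletal muscle, prostaglandin E2 acts on muscle stem cells during regeneration, and the dehydrogenase encoded by Hpgd limits how much of it is present.

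Values are log2 signals. A detection floor of 5.11 was taken from olfactory and vomeronasal receptor genes, most of which muscle cells are not thought to express. A gene was called measured where its brighter array passed the floor, as 13554 genes did. Differences are Ad-caERα minus Ad-DsRed on the log2 scale. Their SD was 0.22 over 1210 receptor probe sets, 0.12 over 49 ribosomal protein genes and 0.13 between probe sets of the same gene (770 genes); these describe measurement spread within the pair of arrays and not between cultures. As a check of the vector, the log2 signal of Esr1, the gene of estrogen receptor α, was 8.44 in Ad-caERα and 7.38 in Ad-DsRed. The receptor targets Greb1 (9.31 in Ad-caERα and 5.03 in Ad-DsRed) and Pgr (7.17 in Ad-caERα and 4.70 in Ad-DsRed) lay above the floor only with the active receptor. All 8 skeletal muscle markers were measured, with a median of 11.29 in Ad-caERα and 11.36 in Ad-DsRed.

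The inactivating enzyme gene Hpgd and the steroid enzyme gene Akr1c14 were higher with the active receptor, whereas the 5 synthesis genes with a probe set lay close to their control signals. All 8 genes were measured. With 2-fold as the least difference counted between deposited values, 2 of the 8 were higher and 0 were lower. Over all measured genes this 2-fold rule was passed upwards by 0.59% and downwards by 0.0959%. The counts were again 2 and 0 at 1.5-fold, passed by 1.82% of measured genes upwards and 0.885% downwards, and at 3-fold, passed by 0.199% upwards and 0.0295% downwards. The 2 genes counted are those picked for their difference, so the count says nothing beyond that choice.

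**Figure D1:**
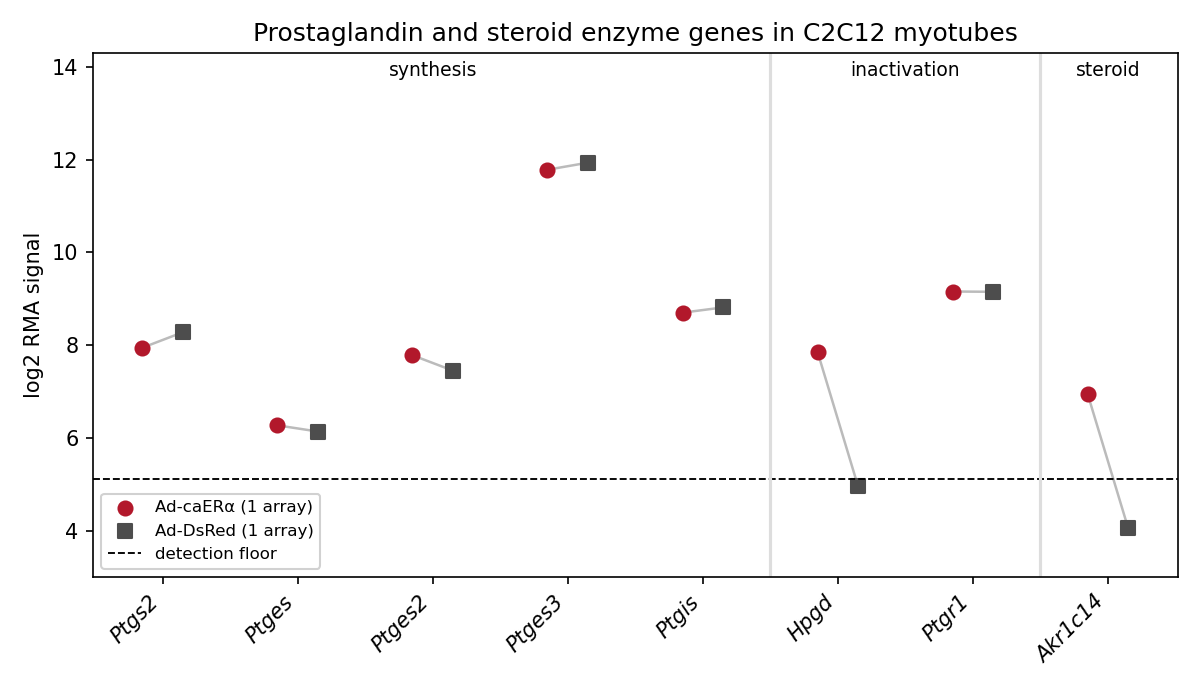
Log2 RMA signal (vertical axis) of the 8 genes with a probe set, grouped by role, with the Ad-caERα array as circles and the Ad-DsRed array as squares; the dashed line is the detection floor of 5.11. Hpgd and Akr1c14 are the genes that lie above the floor in Ad-caERα and below it in Ad-DsRed, and signals of different genes are not on a common scale.

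The log2 signal of Hpgd, the prostaglandin dehydrogenase gene, was 7.85 in Ad-caERα and 4.95 in Ad-DsRed. It was therefore above the floor with the active receptor and just below it in the control culture. Against the floor this was at least 6.71-fold higher in Ad-caERα, and the deposited values differed by 2.90, of which the part below the floor is not measured. With the floor at the 99th percentile of the receptor probe sets the bound was 3.23-fold, and with the floor at the median of all probe sets it was 3.52-fold. In a bulk culture, more cells expressing the gene and more transcript per cell cannot be told apart.

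Akr1c14 belongs to the mouse aldo-keto reductases with hydroxysteroid dehydrogenase activity, which interconvert active and less active steroids. Its log2 signal was 6.94 in Ad-caERα and 4.05 in Ad-DsRed, again above the floor with the active receptor and below it in the control culture. The deposited values differed by 2.89, of which the part below the floor is not measured. Because the control signal lay further below the floor, the bound was smaller, at least 3.57-fold higher in Ad-caERα. It came to 1.72-fold with the floor at the 99th percentile of the receptor probe sets and 1.87-fold with the floor at the median of all probe sets, below the 2-fold rule in both cases.

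The promoter windows of Hpgd and Akr1c14 are shown because these genes carry the contrast, and that of Ptgs2 is shown as the inducible synthesis gene that was not higher. Each window runs from 250 bases before to 50 bases after the start annotated by RefSeq on GRCm38.p6, on the plus strand in all 3 cases: Hpgd at chr8:56294302-56294601, Akr1c14 at chr13:4059341-4059640 and Ptgs2 at chr1:150099781-150100080. The Akr1c14 start lies inside the annotated span of the gene, which begins further upstream. Capitals mark matches on either strand to the estrogen response half-site GGTCA, the TATA box TATAAA, the GC box GGGCGG, the E-box CANNTG bound by myogenic factors among others, and the C/EBP palindrome TTGCGCAA.
Hpgd: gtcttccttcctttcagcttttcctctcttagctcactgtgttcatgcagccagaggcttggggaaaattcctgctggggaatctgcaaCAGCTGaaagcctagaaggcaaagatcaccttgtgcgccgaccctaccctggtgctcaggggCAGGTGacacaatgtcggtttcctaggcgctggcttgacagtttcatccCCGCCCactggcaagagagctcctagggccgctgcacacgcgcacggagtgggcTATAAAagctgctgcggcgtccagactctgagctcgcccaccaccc
Akr1c14: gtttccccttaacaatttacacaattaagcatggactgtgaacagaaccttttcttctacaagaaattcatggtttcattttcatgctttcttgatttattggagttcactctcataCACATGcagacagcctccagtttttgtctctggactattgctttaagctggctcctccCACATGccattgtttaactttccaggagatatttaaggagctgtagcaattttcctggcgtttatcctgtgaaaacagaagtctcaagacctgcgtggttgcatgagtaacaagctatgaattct
Ptgs2: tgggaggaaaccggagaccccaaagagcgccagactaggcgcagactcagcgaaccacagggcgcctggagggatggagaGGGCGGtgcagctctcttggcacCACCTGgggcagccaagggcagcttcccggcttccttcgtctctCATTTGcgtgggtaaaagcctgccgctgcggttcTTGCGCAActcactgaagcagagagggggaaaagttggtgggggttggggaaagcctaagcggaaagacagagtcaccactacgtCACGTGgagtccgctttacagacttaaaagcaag

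The full estrogen response element, searched as the half-site and its reverse complement with any 3 bases between them and so overlapping the half-site matches, had a match in none of the 8 promoter windows used for the listed genes (Ptgis was not searched) and in 0.0700% of all 32851 windows in the table. The half-site matched 2 of the 8, those of Ptges and Ptgs1, against 40.5% of all windows. These letters are absent from the Hpgd, Akr1c14 and Ptgs2 windows, which says nothing of sites elsewhere. Hpgd held E-boxes at 161 and 99 bases before its start and a GC box at 50 bases before it. A match to the TATA box letters began at base 5 of the annotated Hpgd transcript. Whether transcription begins at the annotated base in these cells was not tested, so the distances hold for the annotation only. Akr1c14 held E-boxes at 133 and 75 bases before its start and none of the other motifs. E-boxes occur in 72.3% of all windows, GC boxes in 35.7% and TATA boxes in 13.6%. Ptgs2 held the C/EBP palindrome at 69 bases before its start, a match found in 0.183% of all windows. The windows also differed in composition, with 58.0% G and C and 12 CpG dinucleotides in Hpgd and 39.7% and 2 in Akr1c14, against medians of 52.7% and 7 over all windows.

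Among the synthesis genes, the inducible cyclooxygenase gene Ptgs2 had the lowest difference. Its log2 signal was 7.94 in Ad-caERα and 8.28 in Ad-DsRed, a difference of -0.33 (1.26-fold lower), and both arrays were well above the floor. To set a difference against genes of like signal, each gene was placed among the 500 measured genes nearest to it in mean signal. Of those around Ptgs2, 5.80% had a lower difference. The direction is thus opposite to that of Hpgd, but the size is within the range in which 95% of all measured genes lay, from -0.44 to 0.51.

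The 3 prostaglandin E synthase genes did not share a direction. Ptges, the inducible microsomal synthase that works with Ptgs2, had signals of 6.27 in Ad-caERα and 6.14 in Ad-DsRed, a difference of 0.13 that is about the SD between probe sets of the same gene. Ptges2, a membrane-associated synthase, had 7.78 in Ad-caERα and 7.45 in Ad-DsRed, a difference of 0.33 (1.26-fold higher), and 89.8% of the 500 genes of nearest signal had a lower one. It was the highest of the synthesis genes and lay as far above 0 as Ptgs2 lay below it.

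Ptges3 encodes p23, a cochaperone of Hsp90 that also has prostaglandin E synthase activity. The log2 signal of its brightest probe set was 11.78 in Ad-caERα and 11.94 in Ad-DsRed, a difference of -0.15. The gene has 3 probe sets, and they did not share a direction: another gave 11.10 in Ad-caERα and 11.21 in Ad-DsRed, and the third gave 8.96 in Ad-caERα and 8.84 in Ad-DsRed. Their differences of -0.15, -0.11 and 0.12 are of the size of the spread between probe sets. RefSeq also lists a Ptges3 pseudogene, and whether any of these probe sets reads it was not tested.

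Ptgis encodes prostacyclin synthase, an enzyme best known from endothelium and smooth muscle. Its log2 signal was 8.70 in Ad-caERα and 8.81 in Ad-DsRed, a difference of -0.11 that equals 1.08-fold. Of the endothelial markers, Pecam1, Cdh5, Kdr and Emcn lay below the floor in both cultures and Tek was measured, at 6.60 in Ad-caERα and 6.73 in Ad-DsRed. All 4 smooth muscle markers were measured, as they also are in cultured myogenic cells, with differences from -0.12 to 0.59.

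Ptgr1, a reductase that acts after Hpgd on the oxidized prostaglandins and also inactivates leukotriene B4, was nearly equal on both arrays. Its log2 signal was 9.16 in Ad-caERα and 9.15 in Ad-DsRed, a difference of 0.0064, so the enzyme downstream of Hpgd did not share its difference. Ptgr2, another reductase of the same step, had 8.43 in Ad-caERα and 8.32 in Ad-DsRed, a difference of 0.11.

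Set side by side, the inactivation genes had a median difference of 1.45 over 2 genes and the synthesis genes one of -0.11 over 5, a gap of 1.57. The median over all measured genes was 0.0017. The gap rests on Hpgd, which was picked for its difference. With Ptgr1 alone as the inactivation gene it was 0.12, within the spread between probe sets of the same gene. With Akr1c14 counted among the inactivation genes it was 3.005. These arrays thus show 1 inactivation gene that differed and 1 that was level. Of the synthesis genes 2 lay above 0 and 3 below, with Ptges3 read by its brightest probe set. The split and the signs of the synthesis median and of the gap with Ptgr1 alone rest on that choice. Another Ptges3 probe set gave 0.12.

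**Figure D2:**
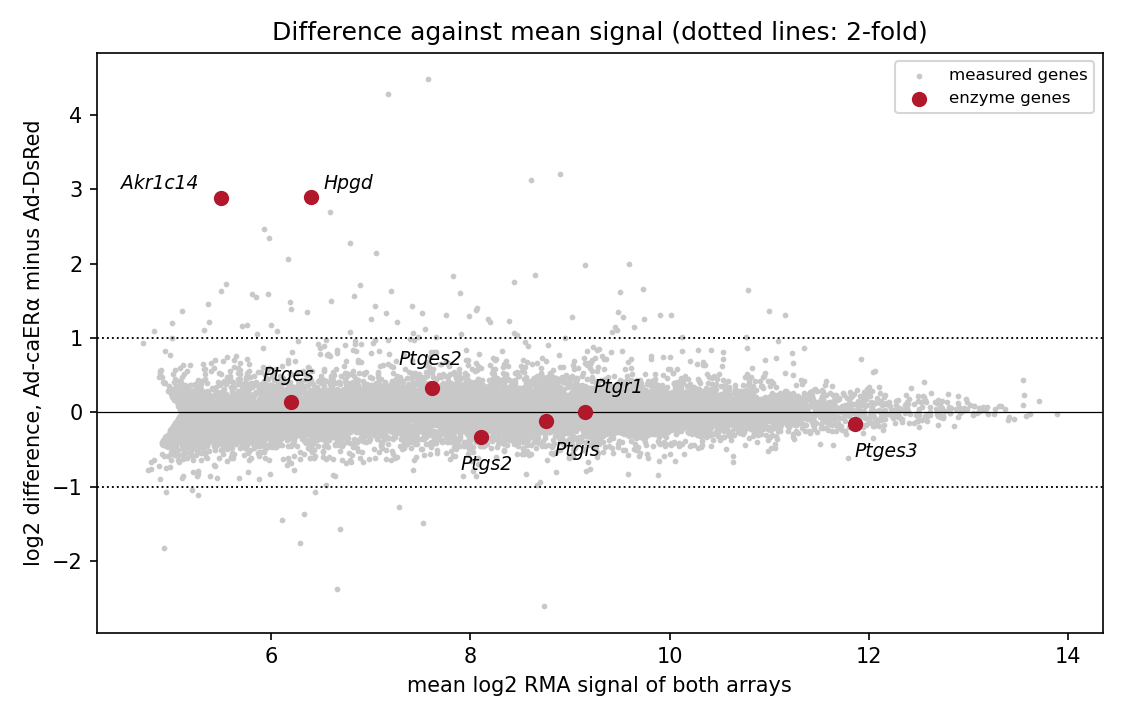
Log2 difference, Ad-caERα minus Ad-DsRed (vertical axis), against the mean log2 RMA signal of both arrays (horizontal axis) for 13554 measured genes in grey and the 8 listed genes in red; dotted lines mark 2-fold. Hpgd and Akr1c14 stand near 2.9 on deposited values, while the other 6 listed genes lie inside the cloud, between -0.33 and 0.33.

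The measured genes whose pair of signals came nearest to that of Hpgd, by Euclidean distance over the 2 arrays, were Bmp8a, which encodes a bone morphogenetic protein, Ripor2, and B3gnt8, a glycosyltransferase gene. Bmp8a had 7.94 in Ad-caERα and 5.25 in Ad-DsRed, a distance of 0.30, Ripor2 a distance of 0.67 and B3gnt8 one of 0.70. The control signal of Hpgd itself lies below the floor and probe sets are not on a common scale, so the distances are approximate and mean only that the deposited signals are of similar size.

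Akr1c14 lies in a cluster of closely related Akr1c genes on mouse chromosome 13, and the others did not pass the floor. All 8 other genes of this name group on the array, among them the progesterone-metabolizing Akr1c18, were below the floor in both cultures. Their signals ran from 3.19 (Akr1c19) to 4.36 (Akr1c13) in Ad-caERα and from 3.04 (Akr1c21) to 4.19 (Akr1c12) in Ad-DsRed. Akr1c13 had 4.36 in Ad-caERα and 3.96 in Ad-DsRed, and Akr1c18 had 3.42 in Ad-caERα and 3.71 in Ad-DsRed, values that have no order below the floor. The other aldo-keto reductases had 5 measured genes, all above 0 (median 0.22) and none past 2-fold. Of all measured genes, 50.2% lay above 0, a share not matched for signal. Past 2-fold were 0.59% of them upwards and 0.0959% downwards, so finding none in a short list, here and below, says little. Highest were Akr7a5, an aldehyde reductase, at 0.44 and Akr1a1 at 0.24; Akr1b10 (0.023) and Akr1e1 (0.074) were lowest.

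**Figure D3:**
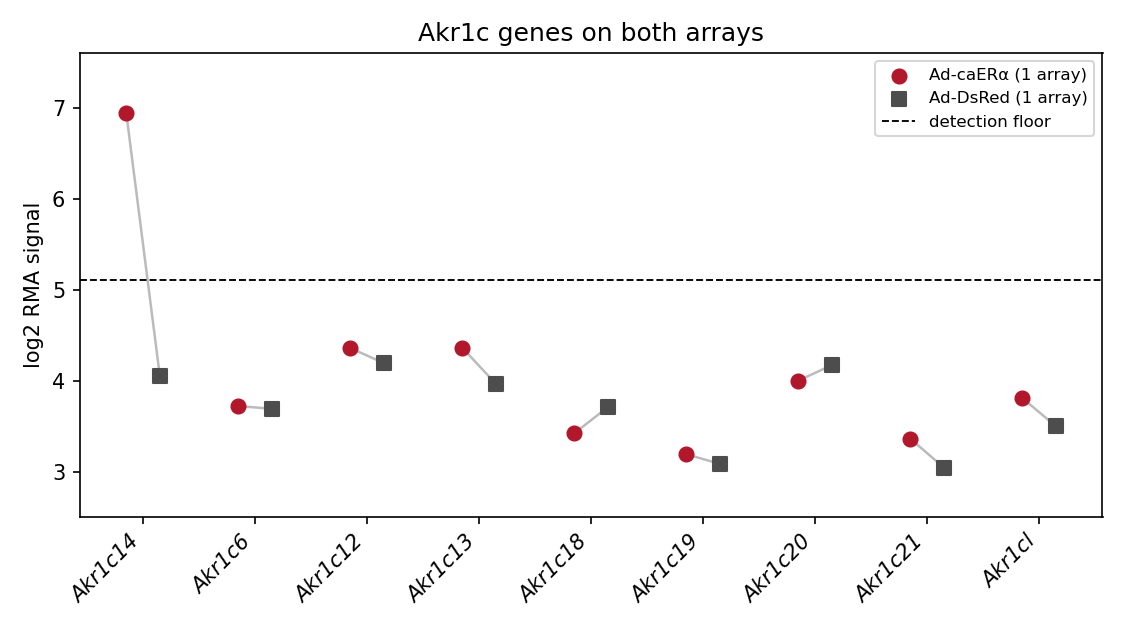
Log2 RMA signal (vertical axis) of Akr1c14 and 8 related genes, with the Ad-caERα array as circles and the Ad-DsRed array as squares; the dashed line is the detection floor of 5.11. The Ad-caERα signal of Akr1c14, 6.94, is the one point above the floor.

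Upstream of the cyclooxygenases, 13 of the 23 arachidonate release and endocannabinoid hydrolysis genes with a probe set were measured. Their median difference was 0.025, with 8 above 0, 4 below and none past 2-fold. Pla2g4a, the cytosolic phospholipase A2 that feeds cyclooxygenases, was lowest, at 6.59 in Ad-caERα and 6.88 in Ad-DsRed, a difference of -0.29. The monoacylglycerol lipase gene Mgll followed at -0.16, and the secreted phospholipase genes Pla2g2d (0.27) and Pla2g2e (0.23) were highest.

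Of 6 other prostanoid synthase genes with a probe set 3 were measured, with a median of -0.046. Cbr1, a carbonyl reductase that can turn prostaglandin E2 into F2α, had 7.52 in Ad-caERα and 7.06 in Ad-DsRed, a difference of 0.46. Ptgds, the lipocalin-type prostaglandin D synthase, was at -0.046 and Prxl2b, a prostamide and prostaglandin F synthase, at -0.24. The thromboxane synthase gene Tbxas1 and the hematopoietic prostaglandin D synthase gene Hpgds were below the floor on both arrays.

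On the receptor side, 5 of 9 prostanoid receptor genes were measured, 2 above 0 and 3 below, with a median of -0.21 and none past 2-fold. That median is the difference of Ptgir, whose signals of 5.53 in Ad-caERα and 5.74 in Ad-DsRed lie close to the floor. Of the 500 genes nearest to Ptgir in signal, 24.4% had a lower difference. Tbxa2r, the thromboxane receptor, was lowest at 5.72 in Ad-caERα and 6.11 in Ad-DsRed, a difference of -0.39. Ptger4, a receptor for prostaglandin E2 that raises cyclic AMP, had 8.30 in Ad-caERα and 8.68 in Ad-DsRed, a difference of -0.38, and 2.80% of the 500 genes of nearest signal had a lower one. Ptger1 (0.11) and Ptgdr2 (0.028) were highest, and Ptger2, Ptger3, Ptgfr and Ptgdr were below the floor on both arrays.

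The transport and other inactivation list had 4 measured genes, 3 above 0, with a median of 0.11 and none past 2-fold. The carbonyl reductase gene Cbr3 was highest at 0.21, followed by Ptgr2, and the efflux pump gene Abcc4 (-0.058) and the transporter gene Slco3a1 (0.10) were lowest. Slco2a1, the uptake carrier that brings prostaglandins to the dehydrogenase, was below the floor on both arrays, with 4.35 in Ad-caERα and 4.64 in Ad-DsRed.

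Of the lipoxygenase, leukotriene and epoxide enzyme genes 8 were measured, 6 above 0, with a median of 0.14. The 1 gene past the 2-fold rule, which 0.59% of all measured genes passed upwards, was Ggt5, a γ-glutamyl hydrolase that turns leukotriene C4 into D4. It had 6.31 in Ad-caERα and 4.69 in Ad-DsRed, at least 2.31-fold higher in Ad-caERα, although with either higher floor the bound was 1.11-fold or 1.21-fold. Cyp2j6, an arachidonate epoxygenase gene, had 5.43 in Ad-caERα and 4.87 in Ad-DsRed, at least 1.25-fold higher. Both its signals lie below either higher floor, where Cyp2j6 would not be measured and no bound would remain. The lowest were the leukotriene C4 synthase gene Ltc4s, with 4.87 in Ad-caERα, below the floor, and 5.19 in Ad-DsRed, and Alox8 (-0.014). Alox5, the enzyme that starts leukotriene synthesis, was level at 11.41 in Ad-caERα and 11.35 in Ad-DsRed.

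Steroid hormone enzymes, the other setting in which Akr1c14 acts, had 13 measured genes of 29 with a probe set. Of these 11 lay above 0 and 2 below, with a median of 0.19 against 0.0017 over all measured genes, 50.2% of which lay above 0, and none passed 2-fold. Hsd11b1, which regenerates active glucocorticoid inside cells, was highest at 9.03 in Ad-caERα and 8.13 in Ad-DsRed, a difference of 0.89 (1.85-fold). Hsd17b11, a dehydrogenase found on lipid droplets, had 9.49 in Ad-caERα and 8.85 in Ad-DsRed, a difference of 0.64. Star, which carries cholesterol into mitochondria, had a difference of -0.25. The other gene below 0 was Hsd17b1, which makes estradiol, with 4.96 in Ad-caERα, below the floor, and 5.11 in Ad-DsRed, at the floor, so no difference is measured there. Cyp17a1 and Cyp11a1, early enzymes of steroid hormone synthesis, were below the floor on both arrays.

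**Figure D4:**
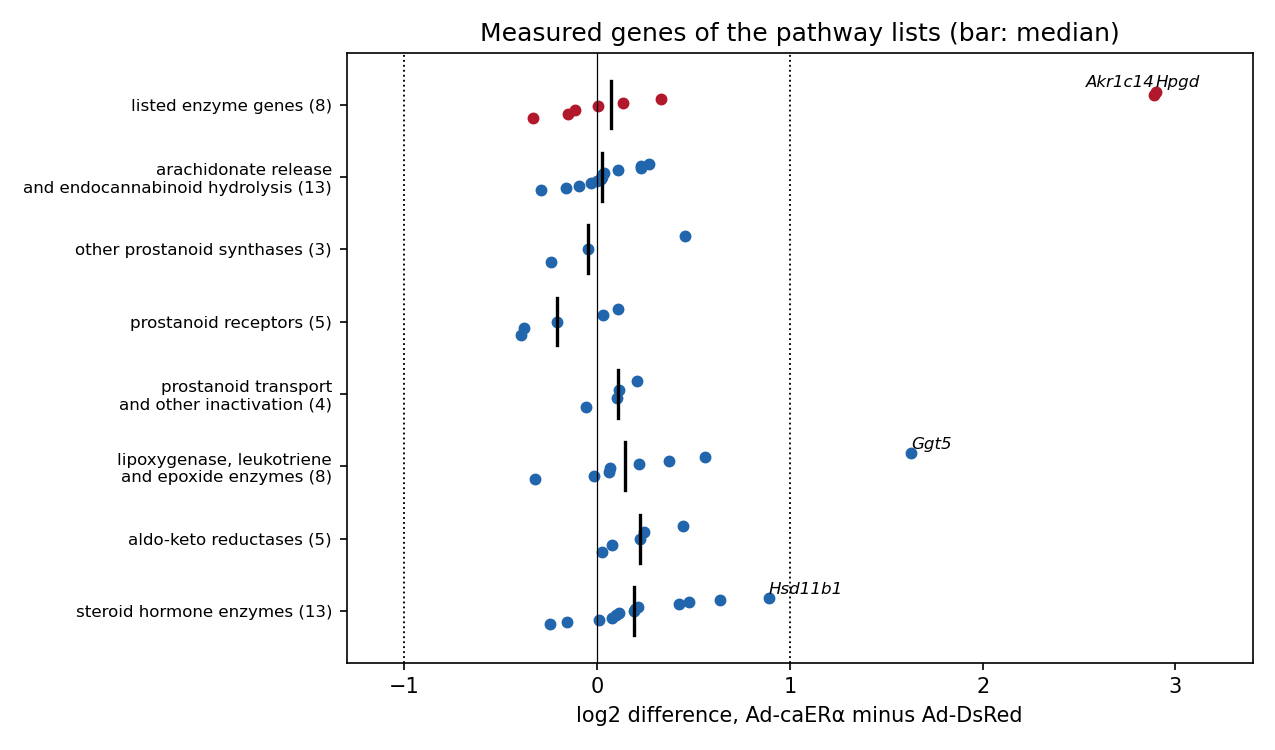
Log2 difference, Ad-caERα minus Ad-DsRed (horizontal axis), of the measured genes in each list, with the number of genes in brackets, 1 point per gene and a bar at the median; dotted lines mark 2-fold. Hpgd, Akr1c14 and Ggt5 lie past the upper line on deposited values, and Hsd11b1 is next at 0.89.

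Markers of other cells that express prostaglandin enzymes were set beside these results. Of 6 macrophage markers Cd68 alone was measured, and the summed linear signal of the list was 184 in Ad-caERα and 175 in Ad-DsRed. All sums in this paragraph include genes below the floor, so they partly hold signal that is not measured. Of 5 mast cell markers Kit and Tpsb2 were measured (sums of 106 in Ad-caERα and 116 in Ad-DsRed), and of 5 endothelial markers Tek alone (169 in Ad-caERα and 173 in Ad-DsRed). The leukocyte marker Ptprc, the macrophage marker Csf1r and the epithelial marker Epcam lay below the floor in both cultures. Of 5 epithelial markers 4 were measured, with differences from -0.23 (Krt8) to 0.47 (Krt19) and sums of 318 in Ad-caERα and 297 in Ad-DsRed. Fibroblast markers, all 5 measured, summed to 11221 in Ad-caERα and 10960 in Ad-DsRed, smooth muscle markers to 9231 in Ad-caERα and 9156 in Ad-DsRed, and adipocyte markers, 1 of 4 measured, to 84.99 in Ad-caERα and 96.1 in Ad-DsRed. No marker passed the 2-fold rule, which 0.59% of all measured genes passed upwards and 0.0959% downwards. The cultures came from a myoblast line, so a marker signal here need not mean that such cells were present. Any part of such cells in the differences above was not tested.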

How the data were processed

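Total RNA of 1 Ad-caERα and 1 Ad-DsRed culture was labelled as biotinylated cRNA from 150 ng, per the labels' protocols. The deposited table holds a log2 signal for each probe set, made by the authors with Affymetrix Expression Console and RMA (background correction, quantile normalization and probe set summary), per the submitters' processing notes; versions and filters were not given in the sources used here. Differences between weak signals are compressed by RMA. Array medians were 6.02 for Ad-caERα and 6.05 for Ad-DsRed, and the 2 arrays limit the precision.

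Of 35556 probe sets, 21789 had 1 gene in the platform's annotation, 1621 had several and 12146 are unnamed here; 21698 matched RefSeq (GRCm38.p6), the source of names and promoters. For genes with several probe sets (999 of 19938) the one with the highest mean was used. The floor was the 95th percentile of the brighter value over 1210 receptor probe sets. A fold whose dimmer array lay below the floor is given as a bound. No test, p-value or standard error was computed.

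Named genes were the listed members, and in each pathway list those past 2-fold and up to 2 highest and 2 lowest; for Hpgd also the 3 nearest genes, which for Akr1c14 are not given because its control signal lies well below the floor. Other genes, Ptgr2, Alox5 and those below the floor among them, were chosen after their values were seen. Members, lists and rules were chosen with earlier results of these data known. Alternatives covered the floor, normalization (centring, loess, quantile), probe sets, threshold and summary. Python 3.11.15, numpy 2.4.6, pandas 2.3.3, statsmodels 0.14.6 and matplotlib 3.10.9 were used.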

Additional observations from a re-analysis of the deposited data

How the results depend on the processing

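No paired analysis was possible because there is 1 array per vector, which also means that none could be left out. The count of 2 higher and 0 lower genes, on deposited values, and of 8 measured ones was the same under each normalization and probe set rule tried. The probe set rule could change only Ptges3, the one listed gene with several probe sets, and through it the synthesis median and the gap. The synthesis median was -0.11 with the brightest probe set and -0.048 with the mean over probe sets. The counts past the threshold were also the same at 1.5-fold and 3-fold. A higher floor alone could change them only by dropping a gene from the measured ones, and all 8 stayed measured at both higher floors. With values raised to either higher floor, an alternative chosen after seeing the data, 1 gene was higher, Hpgd, and 0 were lower. Of 132 recalculated values, 120 moved by less than 0.13 on the log2 scale, the SD between probe sets of the same gene, or by less than 1.5 times for counts. A change of sign was counted only for differences of at least 2-fold, and 0 of these changed sign. Many of the 120 could not move by construction. A different floor leaves deposited differences as they are, the probe set rule leaves genes with 1 probe set, and raising to the floor leaves genes above it on both arrays. Raising values below the floor to it gave log2 differences of 2.75 for Hpgd and 1.84 for Akr1c14, both still past 2-fold. Counting Akr1c14 with the inactivation enzymes gave a median of 2.89 and a gap of 3.005. The higher floors, an alternative for the bounds chosen after seeing the data, gave at least 3.23-fold and 3.52-fold for Hpgd, 1.72-fold and 1.87-fold for Akr1c14, and 1.11-fold and 1.21-fold for Ggt5. The difference of Ptgr1, near 0, ran from -0.020 to 0.035. Detection calls and probe-level signals were not analysed here, so signals near the floor carry an unknown error.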

Other observations

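The chromosome neighbours of Hpgd and Akr1c14, the nearest 2 protein-coding genes on each side with a probe set in RefSeq order, were read after the values of both genes had been seen. Beside Hpgd on chromosome 8, the log2 signal of Cep44, a centrosome protein gene, was 6.22 in Ad-caERα and 6.26 in Ad-DsRed, and Fbxo8 had 9.22 in Ad-caERα and 9.20 in Ad-DsRed. Glra3, a glycine receptor subunit gene, and Adam29, on the other side of Hpgd, were below the floor on both arrays. Beside Akr1c14 on chromosome 13, Tubal3 and Ucn3 on one side and Akr1c18 and Akr1c13 on the other were all below the floor. Only Cep44 and Fbxo8 were measured, so the other neighbours could not pass the 2-fold rule. Neither Cep44 nor Fbxo8 passed it, but few measured genes did, 0.59% upwards and 0.0959% downwards.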
